A study of Homo sapiens with 25 samples.

Results

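The 8 genes described here encode PML and proteins that are found in or at PML nuclear bodies: PML, SP100, SP110, SP140, DAXX, HIPK2, MORC3 and CREBBP. They were taken by name from a list of body components, not by a measured value, though with earlier results of these data known. All 8 were found among the 19970 protein-coding genes annotated on chromosomes 1 to 22 and X. PML nuclear bodies are spherical structures that PML protein builds through its own multimerisation and through SUMO, a small protein tag that PML carries and that partner proteins bind. Interferon is known to raise transcription of PML and of the Sp100 family, and the bodies are known for antiviral defence, loading of the histone variant H3.3 and p53 control. H3K4me3 marks active or poised promoters, H3K27ac marks active promoters and enhancers, H3K9me3 marks heterochromatin, and LMNB1 is lamin B1, a protein of the nuclear lamina.

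The study used MDA-MB-231, a triple-negative breast cancer line of basal, mesenchymal character, for chromatin immunoprecipitation and sequencing. All groups share this line, fixation with disuccinimidyl glutarate and then formaldehyde, and the series names no further allele or drug. In the knockdown groups PML was silenced by short hairpin RNA from a lentivirus, and the titles of the other groups say control, without naming what the control cells received. For H3K4me3, H3K27ac, LMNB1 and H3K9me3 there are 2 libraries in each condition, and for PML there are 3 libraries whose titles name no condition; the 4 libraries of H3K27me3 have no list among those used and are not analysed here. No label says whether replicates came from separate cultures, and how far PML was depleted is not measured in these lists.

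Each mark or protein has 1 deposited list per condition, so no value below has a replicate error and no test could be run. The lists hold 22211 H3K4me3 peaks in control and 27760 after knockdown, 42320 and 43615 H3K27ac peaks, 420 PML domains, 410 and 380 LMNB1 domains, and 430 and 281 H3K9me3 domains. Read depth is unknown. A gene missing from a list lies below the authors' threshold there, which does not show that the mark was absent. Marker genes were looked at as a check of the labelled line. All 6 basal and mesenchymal markers (VIM and CD44 among them) had promoter peaks in all 4 peak lists. Of 6 luminal breast markers 3 and 4 had an H3K4me3 peak in control and knockdown, near the 61.8% and 63.7% of all genes. In H3K27ac 0 and 1 of the 6 had a peak, against 50.8% and 53.7% of all genes. None of 6 blood cell markers had a promoter peak in any of the 4 lists.

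A promoter here is the stretch from 1 kb before to 1 kb after the start of the canonical transcript in GENCODE release 44 (hg38), and a promoter peak overlaps it by at least 1 bp. In H3K4me3, 7 of the 8 genes had a promoter peak in the control list, against 61.8% of all protein-coding genes, and the same 7 had one in the knockdown list, against 63.7%. In H3K27ac, 6 of the 8 had a promoter peak in control, against 50.8% of all genes, and 7 after knockdown, against 53.7%. SP140, the member known mainly from lymphoid and myeloid cells, was the gene with no peak at its canonical promoter in any of the 4 lists. CREBBP was the gene with an H3K27ac peak at its canonical promoter in the knockdown list alone. Counting any annotated start, both genes had an H3K27ac promoter peak in both lists, that of CREBBP in control at starts 135059 to 135790 bp inside the gene.

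With canonical starts, a promoter peak present after knockdown and not in control was found for 0 of 8 members in H3K4me3, where 1.99% of all genes had this, and for 1 of 8 in H3K27ac, where 3.55% had it. Counts of 0 and 1 among 8 genes do not set the members apart from these shares. The map of peaks around each start shows where the marks lie.

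**Figure D1:**
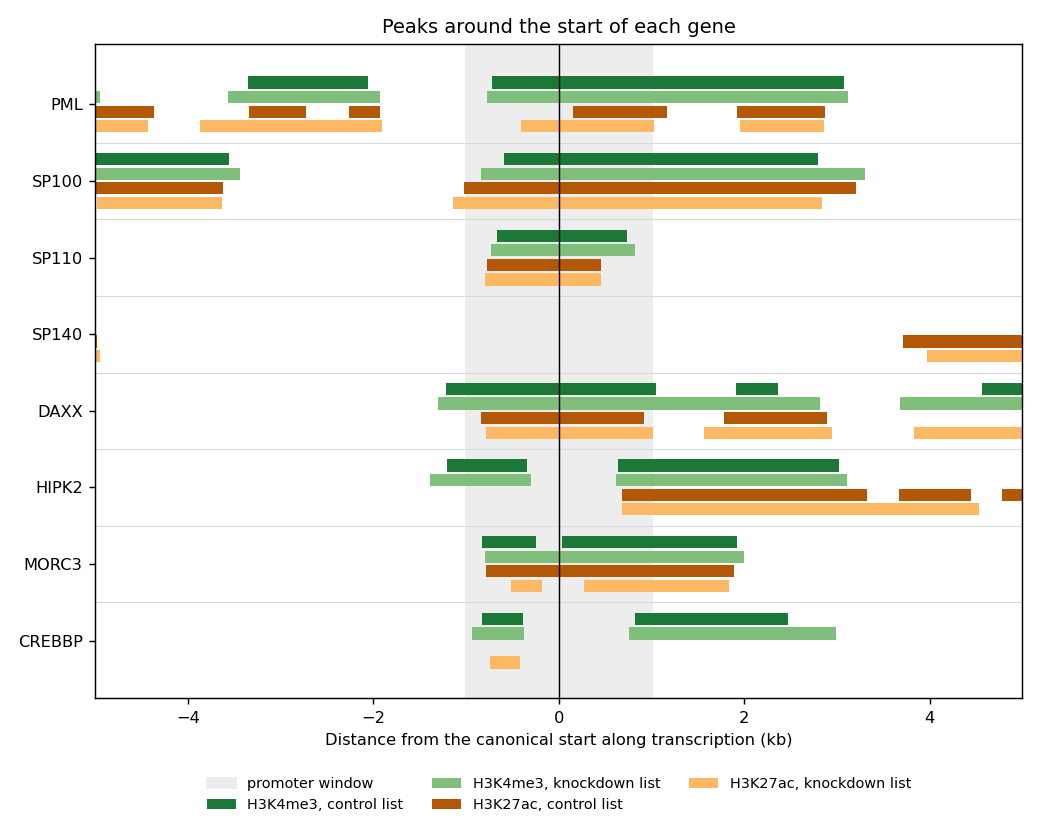
Peaks within 5 kb of the canonical start of each gene, by distance along transcription (kb), with green bars for H3K4me3, orange bars for H3K27ac, dark for the control list and light for the knockdown list, and the promoter window of 1 kb on either side in grey. PML, SP100, SP110 and DAXX have H3K4me3 over the start in both lists, HIPK2 and CREBBP have peaks on both sides of a start that lies in a gap, and SP140 has no peak in the window.

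PML itself, the scaffold of the bodies and the gene silenced in the knockdown, lies on chr15:73994673-74047827 on the plus strand, with 9 exons in its canonical transcript. Its promoter carried H3K4me3 over 3792 bp in the control list and 3894 bp in the knockdown list, from 718 bp before the start to 3073 bp after it in control. These were the widest H3K4me3 promoter peak of the 8 in control and the third widest after knockdown. Among promoters marked in both H3K4me3 lists, 12328 in all, the width stood at percentile 94.0 in control and 89.3 after knockdown. The H3K4me3 summit lay in intron 1 in both lists, 525 bp and 514 bp after the start.

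H3K27ac at the PML promoter was narrower. It covered 1008 bp in control, wholly downstream of the start by 156 bp or more, and 1438 bp after knockdown, from 411 bp before the start to 1026 bp after it. A second H3K27ac peak in intron 1, about 2 kb downstream, measured 945 bp and 911 bp in control and knockdown. Thus the first base of the PML transcript lay inside an H3K27ac peak in the knockdown list and outside one in the control list. Outside the gene, an H3K27ac peak lay 7224 to 4371 bp before the start in control, with 2854 bp at fold 6.04. After knockdown it measured 3000 bp at fold 15.4. In each list it was wider than the PML promoter peak and of higher fold. Between it and PML, H3K27ac peaks also touched the promoter of STOML1.

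Short hairpin RNA acts on the transcript, so marks at the silenced gene's own promoter are a separate measurement from its depletion. The fold enrichment over background that the authors' peak caller gave for the PML promoter was 21.9 in control and 58.3 after knockdown in H3K4me3, and 4.11 and 11.3 in H3K27ac. Folds of separately called lists are not on a common scale. The highest promoter fold was higher in the knockdown list for 7 of 7 members marked in both H3K4me3 lists, where 95.5% of all such promoters were, and for 6 of 6 in H3K27ac, where 81.5% were. The members' counts therefore say no more than the background.

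The place of each gene within its own list is given as a description, with 50 as the middle. PML stood at percentile 61.8 of H3K4me3 promoter fold in control and 80.7 after knockdown. In H3K27ac, among 10009 promoters marked in both lists, it stood at 15.8 and 46.9. SP110 was at 52.6 and 71.4 in H3K4me3 and at 38.0 and 54.5 in H3K27ac. DAXX was at 35.4 and 55.7, and at 47.3 and 66.2. These 3 genes held a higher place in the knockdown list of both marks, while HIPK2 and SP100 held a lower one in both. HIPK2 was at 59.6 and 45.7 in H3K4me3 and at 48.3 and 39.0 in H3K27ac. SP100 was high in every list, at 95.6 and 83.0 and at 89.6 and 83.0. MORC3 was at 51.0 and 36.2 in H3K4me3 and at 0.335 and 5.08 in H3K27ac, and CREBBP was at 54.6 and 50.3 in H3K4me3. No spread between replicates can be set beside these places, so none is called a change.

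**Figure D2:**
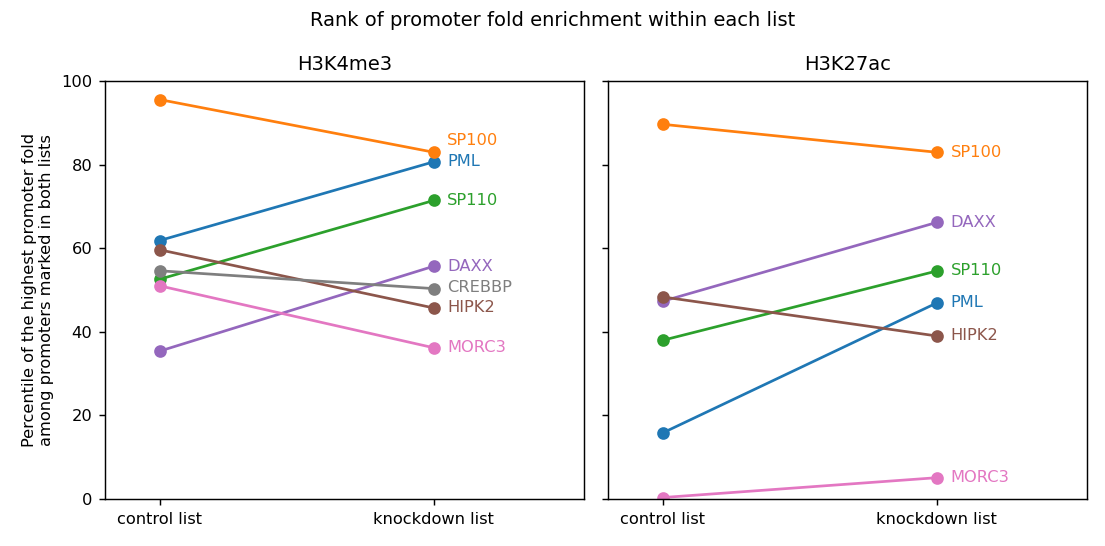
Percentile of the highest promoter fold among promoters marked in both lists of a mark (vertical axis, 0 to 100), in the control and the knockdown list, with 1 line per gene. PML, SP110 and DAXX lie higher in the knockdown list for both marks, HIPK2 and SP100 lower, and MORC3 lies at the foot of both H3K27ac lists.

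Over 8 measures, the percentiles of fold and of width in the 4 peak lists, the promoters most like that of PML among the 9804 marked in all 4 lists were FBXL15, BORCS6 and ISCA2, with Euclidean distances of 23.3, 24.5 and 26.2 percentile points. The nearest member was DAXX, at 75.1 and rank 1075. The farthest of the members with all 4 marks was SP100, at 122 and rank 7190. The members therefore do not share a promoter profile with PML more closely than many other genes do.

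The Sp100 family members are chromatin readers that share SAND and bromodomain modules. SP110, SP140, their close relative SP140L and SP100 lie side by side on chr2:230165186-230545606, a span of 380 kb with 4 genes. SP110 is read from the minus strand and the others from the plus strand. The canonical starts of SP110 and SP140 lie 5752 bp apart on opposite strands, and SP100 starts 89008 bp from SP140L.

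The RefSeq table of promoter windows (GRCh38.p14, 250 bases before to 50 after each start) held windows for 5 of the 8 members: SP100, SP110, SP140, MORC3 and CREBBP. The 4 genes of the cluster share a stretch close to the start, shown because SP140 carries it without a promoter peak while the others are marked. Each is printed 5′ to 3′ on the gene's own strand, and the capitals mark the shared 8 bases.
SP100: aaatacTTTCACTTctcttttccccatttg
SP110: gaaaacTTTCACTTttcttttctcggaagc
SP140: aggcaaTTTCACTTttcttttcctctttga
SP140L: aaatacTTTCACTTttcttttccccatttg

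The SP100 stretch is chr2:230416131-230416160 on the plus strand, 70 to 41 bases before the start. That of SP110 is chr2:230220012-230220041 on the minus strand, 57 to 28 bases before its canonical start. In SP140 it is chr2:230225720-230225749 on the plus strand and spans the start, from 16 bases before it to 13 after. In SP140L it is chr2:230327100-230327129, 93 to 64 bases before the start. The letters TTTCACTT occur on either strand in 565 of the 34961 windows of the table, or 1.62%. The longer run TTTCACTTNTCTTTTC, built from the SP100, SP110 and SP140 windows with 1 free position, occurs in 5 windows of 4 genes, which are SP100, SP110, SP140 and SP140L. The run was written after the windows had been seen, so its rarity describes these letters and tests nothing. Neighbouring genes of a family share sequence by descent, and the match is no measurement of a factor bound there.

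Of the motifs searched on both strands, GAAANNGAAA, the core of the interferon-stimulated response element, was in none of the 5 members' windows, and 3.58% of all windows held it. TTCNNNGAA, the core of the gamma-activated site, was in the SP110 window alone of the 5, and in 7.66% of all windows. The looser AANNGAAA, a core bound by interferon regulatory factors that was added after the windows were seen, occurred 1 time in the SP100 window, 2 times in SP110, 2 times in SP140 and 1 time in CREBBP, and 22.8% of all windows held it. The 8 capital letters of the shared stretch are themselves a match of AANNGAAA on the reverse strand.

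SP100, the founding member of the family and a core component of the bodies, had the highest promoter fold of the 8 in all 4 lists. It lies on chr2:230415942-230545606. H3K4me3 covered 3390 bp in control and 4141 bp after knockdown, and H3K27ac covered 4238 bp and 3979 bp. The widest promoter peak of all 8 was that of SP100 in 3 of the 4 lists, the exception being H3K4me3 in control, where PML was wider. The folds were 42.3 and 60.9 in H3K4me3 and 21.7 and 25.2 in H3K27ac. Every list also held a separate peak centred about 4.4 kb upstream of SP100, of 1547 bp and 1718 bp in H3K4me3 and 1402 bp and 1345 bp in H3K27ac.

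The upstream peak touches no annotated protein-coding promoter. Its fold was 17.0 in control and 56.9 after knockdown in H3K4me3, and 8.93 and 23.3 in H3K27ac. In control it lay well below the SP100 promoter peak in both marks, and after knockdown the folds of the 2 places were close in both.

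SP110, an Sp100 relative linked to the control of intracellular pathogens in macrophages, lies on chr2:230165186-230225729. Taking the widest promoter peak of each gene, its H3K4me3 peak was the narrowest among the 7 marked members, at 1399 bp in control and 1559 bp after knockdown. H3K27ac covered 1222 bp and 1249 bp. The H3K4me3 summit lay 138 bp and 123 bp inside the gene and the H3K27ac summit 242 bp and 239 bp before the start, so the positions repeated closely between the 2 lists. The bases under both marks are printed next because this promoter is marked although it holds few CpG; the run is chr2:230220015-230220234 on the minus strand, 250 to 31 bases before the start, and capitals mark matches of AANNGAAA on the reverse strand.
SP110 upstream: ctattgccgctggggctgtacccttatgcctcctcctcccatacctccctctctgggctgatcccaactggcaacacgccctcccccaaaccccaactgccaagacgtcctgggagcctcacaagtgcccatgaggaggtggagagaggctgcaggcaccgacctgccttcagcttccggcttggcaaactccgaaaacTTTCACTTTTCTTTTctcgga

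SP110 has a further annotated start 5745 bp upstream, 7 bp from the canonical start of SP140 and on the other strand. No list had a peak within 1 kb of that start. The marked SP110 start is thus the canonical one, and the shared region where the upstream SP110 start and the SP140 start meet head to head was below threshold in all 4 lists.

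SP140, a reader of histone marks of immune cells, lies on chr2:230203110-230313215. It had 0 promoter peaks in each of the 4 lists at its canonical start. An H3K27ac peak lay in intron 1, with 1914 bp and fold 15.8 in control and 1736 bp and fold 15.1 after knockdown. It spans 3713 to 5626 bp after the canonical start in control and 3968 to 5703 bp after knockdown. Annotated alternative starts of SP140 lie under it, at 4675 and 4678 bp, and no H3K4me3 peak touched that place in either list. A smaller H3K27ac peak lay at about 9.5 kb, with fold 6.02 and 5.35. SP140 was therefore unmarked at its start and acetylated inside its first intron, in both conditions.

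CpG content separated marked from unmarked genes across the table. A window with at most 9 CpG carried an H3K4me3 promoter peak in control in 11.5% of 3438 genes, and a window with more in 81.2% of 11108 genes; in H3K27ac the shares were 12.1% and 66.9%. The bound of 9 was set after the members' windows were seen. SP100 had 8 CpG in its window, SP110 had 9 and SP140 had 5, where the median window had 14. SP100 and SP110 thus fall in the class that was mostly unmarked in this line, and both were marked in all 4 lists, while SP140 falls in the same class and was not. MORC3, with 26 CpG, and CREBBP, with 36, lie in the other class.

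DAXX, the chaperone that deposits histone H3.3 together with ATRX, is the shortest of the 8 genes, at 4.46 kb on chr6:33318558-33323016. Its H3K4me3 promoter peak measured 2263 bp in control and 4122 bp after knockdown, the largest ratio of widths of the 7, at 1.82, where the median over all promoters marked in both lists was 1.14. In control a separate H3K4me3 peak of 457 bp and fold 2.59 lay over exon 3, about 2 kb inside the gene, and in the knockdown list the promoter peak reached over that place. The wider call thus takes in a weak peak that was already listed in control. H3K27ac at the promoter barely differed in width, with 1753 bp and 1794 bp.

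HIPK2, a kinase that phosphorylates p53 at PML bodies, lies on chr7:139561570-139777998 and is the longest of the 8, at 216 kb. Its start fell in a gap between 2 H3K4me3 peaks in both lists, running from 347 bp before the start to 634 bp after it in control and from 305 bp before to 613 bp after it after knockdown. The downstream peak was the wider, with 2393 bp and 2499 bp. H3K27ac began 682 bp and 684 bp after the start and covered 2640 bp in control and 3848 bp after knockdown. The wider acetylated stretch of the knockdown list takes in a place where control had a second peak of 769 bp, and no H3K27ac peak lay upstream of the start in the window. With a window of 500 bp on either side HIPK2 had no H3K27ac promoter peak in either list.

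MORC3, an ATPase that forms its own foci at PML bodies and represses interferon genes, lies on chr21:36320189-36386148. In control its H3K4me3 was split, with 578 bp before the start and 1890 bp after it and a gap from 249 bp before to 33 bp after the start, and in the knockdown list a single peak of 2793 bp overlapped both places and covered the gap. H3K27ac went the other way: 2672 bp in 1 peak in control, and peaks of 337 bp and 1574 bp after knockdown with a gap over the start. The control H3K27ac peak was weak, with fold 1.85 and a -log10 q of 2.73, and at a minimum of 5 it was lost. MORC3 was thus the member whose joined or split state differed between lists in both marks, in opposite directions. Of all marked genes, 21.3% in control and 14.4% after knockdown had 2 or more H3K4me3 promoter peaks, and 21.0% and 14.2% had this in H3K27ac. The joined H3K4me3 of MORC3 thus went the way of the whole list.

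CREBBP, an acetyltransferase that acts on H3K27 and is recruited to PML bodies, lies on chr16:3725054-3880713. Like HIPK2 it had H3K4me3 on both sides of a start in a gap, with peaks of 442 bp before and 1649 bp after it in control and 557 bp and 2234 bp after knockdown. The gap ran from 392 bp before to 821 bp after the start in control and from 378 bp before to 754 bp after it in the knockdown list. Its H3K27ac peak after knockdown was small, 323 bp at fold 4.14, and lay 738 to 416 bp before the start, wholly under the upstream H3K4me3 peak. That width is at percentile 1.17 of all marked promoters in the list. The window at this start had 70.3% GC, against 57.0% at the canonical SP110 start, and whether base composition affects the calls was not tested. The bases of the gap just before the start, where no peak was called, are printed to set beside SP110: chr16:3880714-3880963 on the minus strand, 250 to 1 bases before the start, with 31 CpG, and with capitals for a match of AANNGAAA on the reverse strand.
CREBBP upstream: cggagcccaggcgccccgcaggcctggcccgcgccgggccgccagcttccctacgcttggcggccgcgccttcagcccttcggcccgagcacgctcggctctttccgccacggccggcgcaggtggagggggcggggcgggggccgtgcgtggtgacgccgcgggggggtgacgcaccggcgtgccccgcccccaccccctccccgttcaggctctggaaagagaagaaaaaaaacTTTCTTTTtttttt

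The first base of the gene lay inside an H3K4me3 peak for 4 of the 7 marked members in control (PML, SP100, SP110 and DAXX) and for 5 after knockdown (MORC3 added), where 71.4% and 81.0% of all marked genes had this. In H3K27ac it did so for 4 of 6 (SP100, SP110, DAXX and MORC3) and 4 of 7 (PML, SP100, SP110 and DAXX), against 59.4% and 69.5%.

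Across the 7 members marked in H3K4me3, the widest promoter peak ranged from 1399 bp in SP110 to 3792 bp in PML in control, with a median of 2263 bp, and from 1559 bp in SP110 to 4141 bp in SP100 after knockdown, with a median of 2793 bp. The median over all marked promoters was 1862 bp and 2220 bp. In H3K27ac the members ran from 1008 bp in PML to 4238 bp in SP100 in control, with a median of 2196.5 bp over 6 genes against 1292 bp over all. After knockdown they ran from 323 bp in CREBBP to 3979 bp in SP100, with a median of 1574 bp over 7 genes against 1473 bp.

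The widest H3K4me3 peak was wider after knockdown in 7 of 7 members, and 95.1% of all promoters marked in both lists were also wider. For H3K27ac 4 of 6 were wider (PML, SP110, DAXX and HIPK2), against 70.8% of all. SP100 and MORC3 were narrower in H3K27ac, at 0.939 and 0.589 times the control width. The direction in H3K4me3 is that of nearly every promoter in the list, so it is not particular to these genes.

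**Figure D3:**
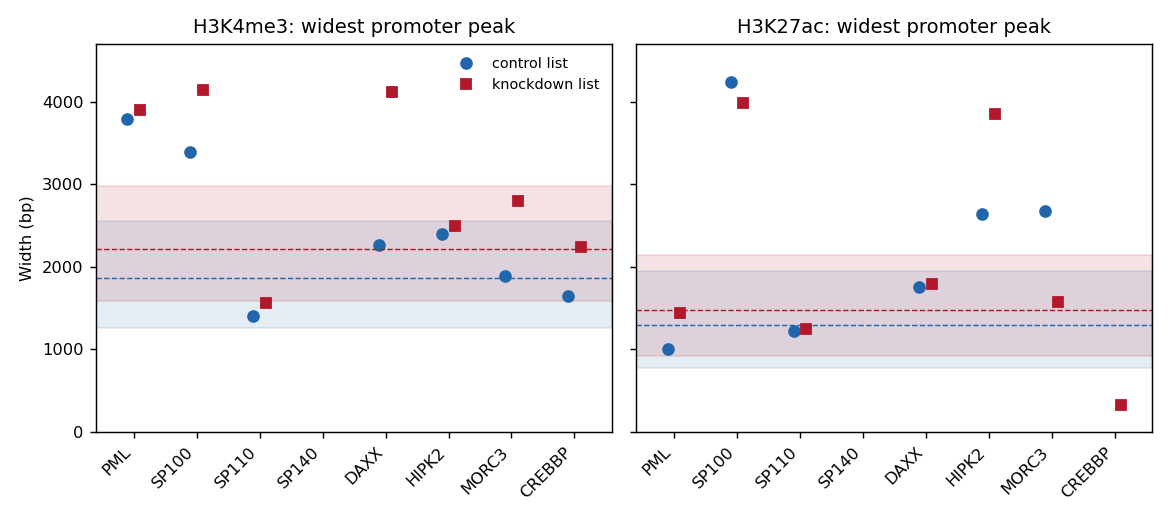
Width in bp of the widest promoter peak of each gene, in the control list (circles) and the knockdown list (squares), with the median (dashed line) and the middle range from the lower to the upper quartile (shading) of all marked promoters. PML and SP100 lie above the shading in H3K4me3 in both lists, DAXX only after knockdown, and SP100 and HIPK2 lie above it in both H3K27ac lists; no symbol means no promoter peak.

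Gene-body peaks are those that overlap a gene and are not among its promoter peaks. In H3K4me3, 4 of 8 members had one in control, against 21.1% of all genes, and the same 4 after knockdown, against 28.1%: SP140, DAXX, HIPK2 and MORC3. In H3K27ac, 7 of 8 had one in each list, all but SP110, against 36.6% and 38.9%. Long genes hold more peaks, so the counts were also taken per length. The members' median was 0.0454 peaks per 10 kb in both H3K4me3 lists and 0.252 in both H3K27ac lists, where the median gene had 0 in each. Most genes had no gene-body peak, so their median is 0 at any scaling, and the part of gene length in the counts was not tested. The H3K4me3 median lies between 0 and the 0.0908 of SP140, whose peak is the SP110 promoter peak.

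Of the H3K4me3 gene-body peaks, several belong to a neighbour. The 8 genes held 6 such peaks in control and 8 after knockdown, of which 4 and 5 touched no other gene's promoter. With peaks of a -log10 q of at least 5 alone, the counts were 3 and 6. The peak within SP140 is the SP110 promoter peak, because an annotated SP140 transcript starts 22626 bp further upstream. The peak in MORC3, about 65.7 kb from its start, is at the promoter of CHAF1B. In DAXX the knockdown peak of 2172 bp at the 3′ end touches the promoter of ZBTB22, while the control peak is the weak one over exon 3. The remaining peaks, 3 in control and 5 after knockdown, are those of HIPK2.

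H3K27ac gene-body peaks numbered 19 in control and 21 after knockdown, of which 18 and 19 touched no other gene's promoter. With a -log10 q of at least 5 the counts were 16 and 15, and with lists of equal size 19 and 20. All 19 of the control peaks overlapped a peak of the knockdown list, and 17 of the 21 overlapped one in control. The same shares over all genes were not counted, so these overlaps are not read as particular to the members. The strongest lay in intron 2 of HIPK2. It measured 5060 bp at fold 32.2 in control and 4923 bp at fold 44.0 after knockdown, at chr7:139679636-139684695 in control, between 93.3 and 98.4 kb from the start. By fold it was at percentile 98.8 of its list in both conditions. H3K4me3 beneath it was weak, with 1 peak of fold 2.95 in control and 3 peaks of fold 3.33, 5.55 and 3.96 after knockdown. The acetylated stretch of intron 2 was thus more enriched than the HIPK2 promoter in each list, where the H3K27ac folds were 8.10 and 9.59.

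Further H3K27ac peaks of HIPK2 lay about 6.1 kb (fold 10.2 and 10.8) and 46.0 kb (fold 7.81 and 8.86) into intron 1 and at about 127 kb in intron 2 (fold 4.25 and 3.94). Both peaks of intron 1 were also under H3K4me3 peaks in each list, with folds of 5.32 in control and 11.0 after knockdown at the farther.

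In PML an H3K27ac peak lay in intron 7, about 46 kb from the start, at chr15:74040550-74041329 in control. It measured 780 bp at fold 5.06 in control and 1357 bp at fold 20.5 after knockdown. Within its list the peak stood at percentile 44.9 of fold in control and 89.3 after knockdown. An annotated PML transcript starts 46613 bp after the canonical start, at the last base of the control peak and inside the knockdown peak. No H3K4me3 peak overlapped it. Among H3K27ac peaks of the members this one had the largest difference in place between the lists, and with 1 list per condition no error can be given for it.

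SP100 had 5 H3K27ac gene-body peaks in control and 6 after knockdown, all without H3K4me3. Their folds ran from 3.85 to 7.03 in control and from 2.70 to 8.42 after knockdown. The neighbouring control peaks at about 104 and 105 kb in intron 24 were called as a single peak of 1556 bp in the knockdown list. Peaks at about 24 and 75 kb, of fold 3.62 and 3.78, were in the knockdown list alone. CREBBP had 2 weak ones in each list, in intron 1 (fold 3.08 and 3.35) and intron 21 (fold 3.48 and 4.24). MORC3 had 1 in intron 3, with fold 4.81 and 5.49.

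**Figure D4:**
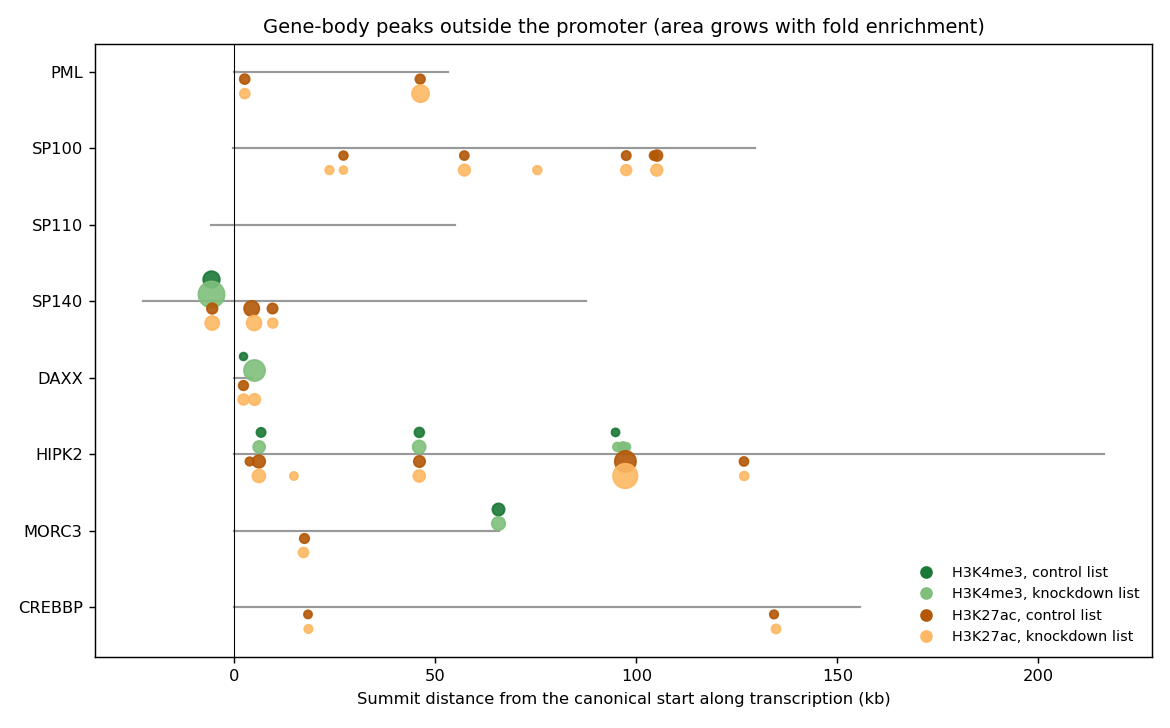
Gene-body peaks outside the promoter by the distance of the summit from the canonical start along transcription (kb), with a grey line for the extent of each gene, symbol area growing with fold enrichment, green for H3K4me3 and orange for H3K27ac, dark for control and light for knockdown. The large orange symbols at 97 kb in HIPK2 stand for folds of 32.2 and 44.0, and the symbols at about 46 kb in PML for 5.06 and 20.5.

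The domain lists mark long stretches of enrichment for PML, LMNB1 and H3K9me3. The start of 0 of 8 members lay in a domain of any of the 5 lists. Over all genes 13.1% of starts lay in a PML domain, 12.4% and 11.0% in an LMNB1 domain in control and knockdown, and 10.0% and 8.60% in an H3K9me3 domain. At these shares a count of 0 among 8 is near the background. The gene for PML thus lay outside every domain of the protein it encodes, with the nearest one 5259 kb away. That domain is 495 kb long, and with domains of at least 500 kb alone the distance was 7167 kb.

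Distances to the nearest PML domain, from the start of the gene, were 1071 kb for SP110, 1077 kb for SP140, 1267 kb for SP100, 1366 kb for CREBBP, 2231 kb for HIPK2, 3731 kb for DAXX, 3838 kb for MORC3 and 5259 kb for PML. The genes of the SP cluster share their nearest PML domain, chr2:228249001-229149000, and so count as 1 place. The median of the 8 was 1799 kb, with the cluster genes entered separately, and that over all genes on chromosomes with a PML domain was 1269 kb. The latter takes in genes inside a domain, as none of the 8 were. Over genes outside a PML domain the median was 1639 kb. No PML domain lies on chromosome X. SP100 and the other cluster genes thus sit near the middle of all genes, and PML at percentile 82.1. That percentile counts the genes of chromosome X, which have no distance, in its total. Among genes with a distance the place of PML is therefore higher.

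In LMNB1 the nearest control domain was found again after knockdown for 8 of 8 members, with 95.5% to 99.6% of its length overlapped; across all genes 13.1% had a nearest control domain that overlapped no knockdown domain. Control and knockdown distances were 7010 and 7009 kb for PML, 1086 and 1110 kb for SP100, 3726 and 3733 kb for DAXX and 2129 and 2146 kb for HIPK2. For MORC3 they were 3358 and 3368 kb and for CREBBP 1253 and 1267 kb. The domain was farther after knockdown for 7 of 8 members, all but PML, against 51.2% of all genes. The shifts ran from 1 kb nearer to 24 kb farther, and domain lengths come in steps of 17 kb in control and 22 kb after knockdown. SP100, SP110 and SP140 share the shift of 24 kb because they share the domain, so the 7 genes are 5 places. The shifts are of the size of the steps, and 45.6% of all genes had a shift of at most 24 kb in either direction. Their distances to the lamina domains were thus alike in the 2 lists to within about the resolution of the calls.

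H3K9me3 differed more. The nearest control domain overlapped no knockdown domain for 5 of 8 members, SP100, SP110, SP140, DAXX and HIPK2, against 39.2% of all genes, and these are 3 places, since the cluster genes share chr2:228252001-229425000. That domain lay 991 kb from SP100 in control, and the nearest in the knockdown list was on the other side, 5764 kb away, with 59.6% of its length also in a control domain. For SP110 the distances were 795 and 5960 kb and for SP140 801 and 5954 kb. The H3K9me3 list covered 629 Mb in control and 361 Mb after knockdown, so fewer domains of the whole genome were called.

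The nearest domain was farther after knockdown for 5 of 8 members, against 50.6% of all genes. SP100, SP110 and SP140 are among the 5 and share their nearest domain in each list, so they are not separate places. HIPK2 went from 1304 to 2392 kb and CREBBP from 1225 to 1229 kb, where 99.5% of the CREBBP domain was called again. Lengths of H3K9me3 domains come in steps of 23 kb in control and 35 kb after knockdown, so the CREBBP shift of 4 kb is below the steps. PML, DAXX and MORC3 had a nearer domain in the knockdown list, at 3365 against 5010 kb, 347 against 502 kb and 1200 against 3332 kb. These 3 nearer domains were called after knockdown alone, with 0% of their length in a control domain. How many of all genes have such a nearest knockdown domain was not counted, so this is not read as particular to the 3 genes. The MORC3 one, chr21:37520001-39165000, is 1645 kb long. Without domains under 500 kb the DAXX distances became 3745 and 5527 kb in control and knockdown, and that of HIPK2 in control 1971 kb, so the short distances of these genes rest on short domains, and for DAXX the knockdown domain was then the farther. The median of the 8 was 1108 and 2878 kb, and of all genes 1279 and 2044 kb. SP100, SP110 and SP140 enter the members' medians as separate genes though they share their nearest domain. All genes include those inside a domain, as none of the 8 were. Genes outside a domain had medians of 1546 and 2464 kb. Without the domains under 500 kb the members' medians were 1598.15 and 4445.88 kb.

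**Figure D5:**
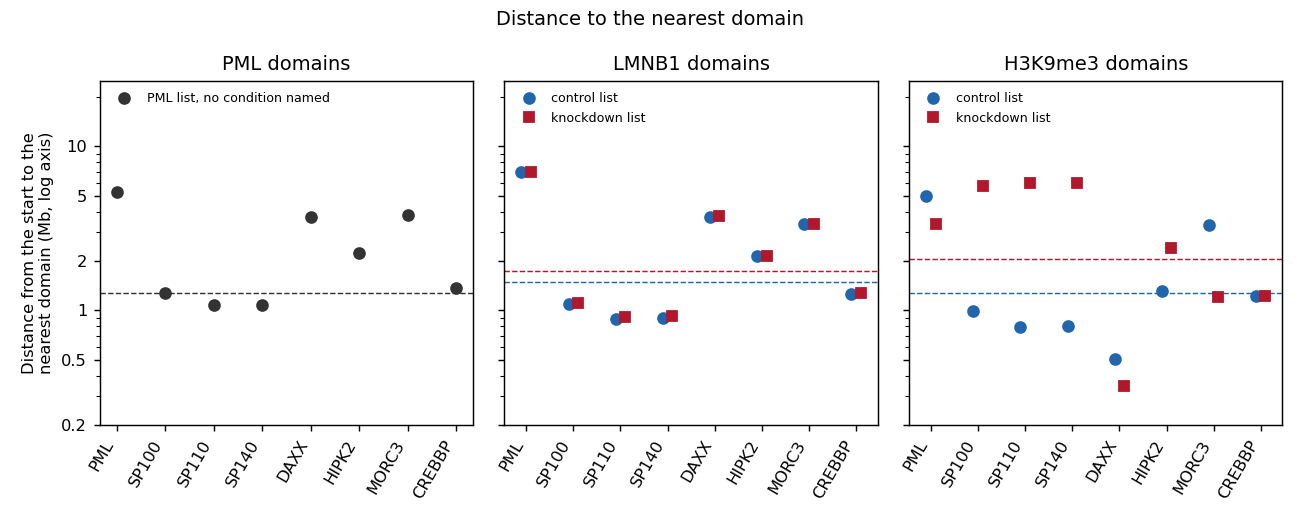
Distance in Mb (log axis) from the start of each gene to the nearest PML, LMNB1 or H3K9me3 domain, in the control list (circles) and the knockdown list (squares), with dashed lines for the median over all genes. LMNB1 symbols of a gene lie nearly on each other, while the H3K9me3 symbols of the SP genes lie at about 0.8 to 1 Mb in control and near 6 Mb after knockdown.

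Genes related to the members were counted in the same way. Over all genes the shares with a promoter peak were 61.8% and 63.7% in H3K4me3 and 50.8% and 53.7% in H3K27ac, in control and knockdown. Among 8 paralogs (SP140L, HIPK1, HIPK3, HIPK4, MORC1, MORC2, MORC4 and EP300), 6 and 6 had an H3K4me3 promoter peak in control and knockdown and 6 and 5 an H3K27ac peak. MORC4 had its H3K27ac peak in control alone, and HIPK4 and MORC1 had no promoter peak. Of 27 further genes of PML bodies, SUMO conjugation and H3.3 deposition, 27 and 27 had an H3K4me3 peak and 25 and 24 an H3K27ac peak. PIAS2, a SUMO ligase, had its H3K27ac peak in control alone, and CABIN1 and USP7, an H3.3 chaperone subunit and a deubiquitinase, had none in either list. NBN, a DNA repair factor that gathers at the bodies, was the gene of the 27 in a PML domain, and ISG20, an interferon-induced nuclease, the gene in an H3K9me3 domain, in the knockdown list. Over all genes 13.1% of starts lay in a PML domain and 8.60% in an H3K9me3 domain of the knockdown list, so these single genes do not stand out.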

How the data were processed

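Chromatin immunoprecipitation libraries of MDA-MB-231 cells were grouped by their titles. The submitters' processing notes name the build hg38 and list MACS2 2.2.7.1, deepTools, BWA 0.7.12-r1039 and Picard 1.104, giving none of them a role. The deposited peak lists gave a fold enrichment (a ratio over background) and a -log10 q-value per peak, and peak names show that the authors called them with replicates 1 and 2 pooled. The deposited domain lists gave the authors' score per domain, of no stated unit; pooling of their replicates is not stated there. File names with ct and pml were read as control and PML knockdown, an assumption. Read depth is unknown, so its precision cannot be given. Peaks were joined to GENCODE release 44 genes by overlap of at least 1 bp, with Python 3.11.15, numpy 2.4.6 and pandas 2.3.3, and checked with bedtools 2.31.1 and on simulated data. The promoter flank was 1 kb, and distances ran from the canonical start. With 1 list per target and condition nothing was tested. The 8 members and the related gene lists were chosen with earlier results of these data known, and related genes were named by promoter peaks in a single condition or none, then by domains. Alternatives changed the promoter window, the start, the peak minimum, the list size, the overlap and the domain list. H3K27me3 was not analysed here.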

Additional observations from a re-analysis of the deposited data

How the results depend on the processing

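The counts of members with a promoter peak, with a gene-body peak or in a domain stayed within 1.5 times under every alternative run for them. Single genes moved: HIPK2 lost its H3K27ac promoter peak in both lists with a window of 500 bp or with the summit required in the window, MORC3 lost its control H3K27ac peak at a -log10 q of at least 5, and counting any annotated start gave SP140 an H3K27ac peak in both lists and CREBBP one in control. At that q minimum the control H3K4me3 gene-body peaks fell from 6 to 3 and those of the knockdown list from 8 to 6. With lists of equal size the H3K4me3 counts were 6 and 6. The median width in control H3K4me3 was 2263 bp, 1890 bp with the 500 bp window and 2468 bp with the promoter peaks of a gene joined; joining gave 3581 bp in the knockdown list in place of 2793 bp. In control H3K27ac it was 2196.5 bp, and 1753 bp with the 500 bp window or the q minimum. After knockdown it was 1574 bp, 1506 bp with the 500 bp window, and 1794 bp with 2500 bp or joining. From any base of the gene in place of the start, the median distance was 1690.43 kb for PML, 1582.93 and 1598.43 kb for LMNB1 in control and knockdown, and 1108.12 and 2878.34 kb for H3K9me3. With domains of at least 500 kb alone the H3K9me3 medians were 1598.15 and 4445.88 kb. The construction of each alternative sets these values. No paired analysis was possible because each target and condition has 1 list, called on pooled replicates where the names say so, and leaving out a replicate was not run for the same reason. Depth is unknown, so how far it limits weak peaks cannot be given.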
